A study of Mus musculus with 24 samples.

Results

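Border macrophages are the resident macrophages of the meninges, the perivascular spaces and the choroid plexus. They live at the surface of the brain, apart from the microglia that occupy the tissue itself, and they are told from microglia by scavenger and uptake receptors that microglia hold at very low levels. Monocytes that enter an injured brain can take on several of the same genes, so no single marker is private to the resident cells.

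The 8 border macrophage markers described here were Mrc1, Cd163, Lyve1, Stab1, Cbr2, Pf4, F13a1 and Ms4a7, a list of known marker genes out of 22274 genes listed. The list was drawn up with earlier results of these data known. All 8 were found by gene identifier. RNA was sequenced from male C57BL/6 J mice, 24 libraries in 8 groups of 3. PEL is an electrical lesion of the pituitary stalk, which cuts the axons of hypothalamic neurons, and Sham is the operated control. Hypothalamus was taken from untreated groups labelled Sham, PEL_3d and PEL_10d, and from the same 3 conditions given growth hormone, labelled Sham_GH, PEL_3d_GH and PEL_10d_GH. Hippocampus was taken from Hip_Sham and Hip_PEL_10d. Hip_Sham 3 is hippocampus by its title while its tissue field says hypothalamus, and it was kept by its title: its summed hippocampal genes came to 332.5 FPKM, beside 399.9 FPKM in Hip_Sham 2, and its hypothalamic genes to 49.7 FPKM. The lesioned groups were sampled at day 3 or day 10, and every Sham group is labelled day 0, so a time after surgery cannot be told apart from the lesion. No transgene or cell sort was involved, and whether each library came from 1 mouse or a pool is not given in the sources used here, so p-values measure only the spread between these libraries.

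Total counts ranged from 15095267 to 17973494 per library. The library labelled Sham 1 stood apart. It carried 92.2 FPKM of Neurod6, a gene of cortical and hippocampal neurons, and its summed choroid plexus genes came to 14950 FPKM, against 23.1 and 25.9 FPKM in the other two Sham libraries. The study also left 1 Sham sample out, so Sham 1 was kept out of the tests here unless stated. The library labelled Hip_Sham 1 carried 139 FPKM of Avp, the hypothalamic vasopressin gene, and only 0.429 FPKM of Neurod6. Summed hypothalamic genes came to 1212 FPKM in Hip_Sham 1 and 54 FPKM in Sham 1, and summed hippocampal genes to 47.8 and 262.8 FPKM, so each carried the transcripts of the tissue on the other's label. Whether these 2 libraries were exchanged was not tested, and neither was moved. Hip_Sham 1 was kept under its label in the hippocampal fits, and values without it are given beside them. Levels are in FPKM, fragments scaled to gene length and library size, as the authors made them, and fold changes are from edgeR's quasi-likelihood test on counts, called at a Benjamini-Hochberg adjusted p under 0.05 over all genes tested. Since tissue pieces were sequenced whole, fewer cells of a type and less RNA per cell cannot be told apart.

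In unlesioned hypothalamus the markers were present at low levels. Over Sham 2, Sham 3 and the 3 Sham_GH libraries, Stab1 ranged from 1.47 to 2 FPKM and Mrc1 from 0.842 to 1.69 FPKM. F13a1 ranged from 0.514 to 1.46 FPKM, Pf4 from 0.78 to 1.48 FPKM and Cbr2 from 0.614 to 1.19 FPKM. Cd163, Lyve1 and Ms4a7 stayed at or below 0.574 FPKM in each of the 5. All 8 were thus detected at rest, each at a small share of the 102.9 to 136.3 FPKM summed over 10 homeostatic microglial genes such as P2ry12, Tmem119 and Fcrls. Of 15 further border macrophage genes, the lectins Cd209f and Cd209g were listed at 0 in most libraries: Cd209f was at 0 in all PEL_3d and PEL_3d_GH libraries, and both were at 0 in all PEL_10d libraries.

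After the lesion the markers followed 3 patterns, sorted here with their values in view. Stab1, Pf4 and F13a1 were 13.3-fold to 23.2-fold higher at day 3 and fell by day 10. Ms4a7 was 25-fold higher at day 3 and 24.4-fold higher at day 10. Mrc1, Lyve1 and Cbr2 were 2.28-fold to 2.8-fold higher at day 3, and Cd163 was 1.78-fold higher without passing the test. The promoters of the first 4 are shown because these genes had the largest changes. They are RefSeq sequences of GRCm38.p6, from 250 bases before to 50 bases after the gene start, read on the gene's strand. Capitals mark GAGGAA or its reverse complement TTCCTC, a purine-rich core that the macrophage factor PU.1 can bind. Pf4 is at chr5:90772185-90772484 on the plus strand, F13a1 at chr13:37050195-37050494, Stab1 at chr14:31168592-31168891 and Ms4a7 at chr19:11336097-11336396, the last 3 on the minus strand.
Pf4: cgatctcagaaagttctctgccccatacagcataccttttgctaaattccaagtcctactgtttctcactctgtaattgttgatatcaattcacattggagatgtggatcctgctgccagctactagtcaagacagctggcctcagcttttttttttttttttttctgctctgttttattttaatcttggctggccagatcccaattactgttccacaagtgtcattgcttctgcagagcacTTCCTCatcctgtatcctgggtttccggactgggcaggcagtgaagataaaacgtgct
F13a1: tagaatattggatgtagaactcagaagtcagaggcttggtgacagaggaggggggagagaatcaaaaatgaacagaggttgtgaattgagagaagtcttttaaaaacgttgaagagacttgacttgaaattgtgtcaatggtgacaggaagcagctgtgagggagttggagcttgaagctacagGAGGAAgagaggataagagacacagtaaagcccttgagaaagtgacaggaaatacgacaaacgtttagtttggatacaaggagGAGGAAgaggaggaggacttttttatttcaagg
Stab1: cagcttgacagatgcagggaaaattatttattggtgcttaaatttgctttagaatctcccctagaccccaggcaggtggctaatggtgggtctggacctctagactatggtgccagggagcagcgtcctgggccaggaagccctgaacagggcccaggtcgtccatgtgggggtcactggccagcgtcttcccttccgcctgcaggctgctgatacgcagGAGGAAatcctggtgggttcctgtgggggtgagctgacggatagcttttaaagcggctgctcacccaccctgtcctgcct
Ms4a7: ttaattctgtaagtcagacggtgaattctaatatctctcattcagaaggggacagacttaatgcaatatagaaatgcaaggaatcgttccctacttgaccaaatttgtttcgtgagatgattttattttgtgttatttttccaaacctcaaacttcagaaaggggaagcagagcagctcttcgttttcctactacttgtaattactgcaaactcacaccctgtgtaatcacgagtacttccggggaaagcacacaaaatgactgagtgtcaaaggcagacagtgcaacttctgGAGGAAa
These letters were found in 28.28% of 32851 mouse promoters of the same length, searched on both strands. Of the 7 markers with a promoter in the table, 6 held them, and Cd163 did not. The longer GAGGAAGT, which contains the first motif, was present in 3.202% of all promoters and in Pf4 and F13a1, the latter at a further start listed for the gene. Another motif, TGCTGA, part of the site bound by Maf proteins, was in 19.48% of all promoters and in those of Cbr2 and Stab1. A match describes the letters in this window and is not a binding site. Lyve1 was not in the table.

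Stab1 codes for stabilin-1, a scavenger receptor that clears modified lipoproteins and dying cells (chr14:31139013-31168641, minus strand). It was at 1.67 and 1.47 FPKM in Sham 2 and Sham 3 and at 32, 20.6 and 33 FPKM in the PEL_3d libraries. At day 10 it was at 7.69, 3.04 and 7.9 FPKM. The groups did not overlap: each day 3 library exceeded each day 10 library, and each of those exceeded both Sham libraries. Its log2 fold change at day 3 was 4.09 ± 0.193 (SE, n = 3 against 2, adjusted p = 1.54e-07 in edgeR), a 17-fold difference. At day 10 it was 1.62 ± 0.269 (adjusted p = 0.00772 in edgeR). The day 10 call was lost with all 3 Sham libraries (adjusted p = 0.0891), without Sham 2 (0.0926) and without Sham 3 (0.0986).

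Pf4 codes for platelet factor 4, a chemokine best known from platelet granules and also made by border macrophages (chr5:90772435-90773383, plus strand). It was at 0.789 and 0.872 FPKM in Sham 2 and Sham 3, on 7 and 8 counts, and at 15.6, 15 and 28.9 FPKM in PEL_3d. By day 10 it was at 1.72, 0.816 and 0.994 FPKM. All day 3 libraries were far above all others, and the day 10 range took in part of the Sham range. The log2 fold change at day 3 was 4.54 ± 0.428 (SE, adjusted p = 1.85e-05 in edgeR), and from day 3 to day 10 Pf4 fell by 4.06 ± 0.371 (adjusted p = 0.000111). Pf4 was under the count filter in PEL_10d against Sham and was not tested there.

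Other platelet genes were read beside Pf4. Ppbp, another chemokine gene of platelets, was listed at 0 in Sham 2 and Sham 3 and at 0.453, 0.471 and 0.632 FPKM in PEL_3d. Gp6, a platelet collagen receptor, was at 0 in all hypothalamic libraries. The 8 platelet genes summed to 1.34 to 1.96 FPKM in the 2 Sham libraries and to 3.72 to 4.42 FPKM in PEL_3d, and of the 2 tested there, Itgb3 rose. The platelet sum was thus higher in PEL_3d as well, and the part of platelets in the Pf4 values was not tested.

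F13a1 codes for the A subunit of coagulation factor XIII, a transglutaminase that crosslinks fibrin and is abundant in tissue macrophages and monocytes (chr13:36867178-37050244, minus strand). It was at 1.21 and 1.22 FPKM in Sham 2 and Sham 3, at 15.6, 9.78 and 23.7 FPKM in PEL_3d, and at 1.62, 0.895 and 3.17 FPKM in PEL_10d. Day 3 was high in every library, while PEL_10d 2 lay below both Sham libraries and the other two above. F13a1 rose at day 3 by 3.73 ± 0.359 on the log2 scale (SE, adjusted p = 2.13e-05 in edgeR) and fell by 3.11 ± 0.421 from day 3 to day 10 (adjusted p = 0.00109), or by 3.71 without PEL_10d 3. Its day 10 difference from Sham was 0.62 ± 0.444 (adjusted p = 0.442), and 0.02 without PEL_10d 3 (0.973).

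Ms4a7 codes for a membrane protein of the four-pass MS4A family, present on border and infiltrating macrophages and nearly absent from resting microglia (chr19:11321039-11336146, minus strand). It was at 0.571 and 0.16 FPKM in Sham 2 and Sham 3, on 9 and 3 counts, and at 6.61, 5.76 and 12.6 FPKM in PEL_3d. PEL_10d libraries held 11.6, 2.77 and 8.79 FPKM. The day 3 and day 10 ranges overlapped and both lay above Sham. Ms4a7 was higher at day 3 by 4.65 ± 0.529 (SE, adjusted p = 7.28e-05 in edgeR) and at day 10 by 4.61 ± 0.758 (adjusted p = 0.00739) on the log2 scale. Both folds moved with the control library used. Without Sham 2 they were 50.2-fold at day 3 and 48.9-fold at day 10, and without Sham 3 16.4-fold and 16-fold. The day 10 call was lost without Sham 2 (adjusted p = 0.0845) or without Sham 3 (0.0986), which leaves 1 control library. From day 3 to day 10 the log2 change was -0.03, with a 95% interval from -1.05 to 0.99, which leaves room for a change of about 2-fold either way.

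The remaining 4 are uptake receptors and an enzyme. Mrc1 codes for the mannose receptor CD206 (chr2:14229392-14332057, plus strand). It was at 1.52 and 1.33 FPKM in Sham 2 and Sham 3, at 4.07, 2.81 and 5.19 FPKM in PEL_3d and at 3.06, 1.68 and 2.44 FPKM in PEL_10d. Both lesioned groups were above Sham in every library. The log2 fold change was 1.48 ± 0.234 at day 3 (SE, adjusted p = 0.000647 in edgeR) and 0.73 ± 0.239 at day 10 (adjusted p = 0.1), the latter passing only without PEL_10d 2 (adjusted p = 0.0127).

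Cd163 codes for the receptor of haemoglobin bound to haptoglobin (chr6:124304656-124330527, plus strand). It was at 0.449 and 0.404 FPKM in Sham 2 and Sham 3, at 0.889, 0.534 and 0.9 FPKM in PEL_3d, and at 0.459, 0.204 and 0.308 FPKM in PEL_10d. Day 3 libraries were all above Sham, and day 10 libraries lay around and below it. Its day 3 difference of 0.83 ± 0.314 on the log2 scale missed the threshold (adjusted p = 0.056 in edgeR) and passed without PEL_3d 2 (0.0103). Cd163 fell from day 3 to day 10 by 1.26 ± 0.339 (adjusted p = 0.0322), a call that was lost without PEL_3d 1 (0.105), PEL_3d 3 (0.119), PEL_10d 2 (0.106) or PEL_10d 3 (0.0781).

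Lyve1 codes for a hyaluronan receptor shared with lymphatic endothelium (chr7:110850607-110863239, minus strand). It was at 0.435 and 0.222 FPKM in Sham 2 and Sham 3, at 1.02, 0.727 and 0.538 FPKM in PEL_3d, and at 0.525, 0.249 and 0.337 FPKM in PEL_10d. Day 3 lay above Sham throughout, and day 10 overlapped it. The day 3 difference of 1.19 ± 0.428 on the log2 scale (SE, adjusted p = 0.0475 in edgeR) was the weakest of the calls: adjusted p was 0.117 with all 3 Sham libraries, 0.146 without PEL_3d 1, 0.0632 without Sham 2 and 0.293 without Sham 3. It was also lost with DESeq2 (0.0924), with 1 fit over all groups (0.0578) and with the replicate block (0.108). Of 4 lymphatic endothelial genes tested, 2 rose and 1 fell at day 3, and their part in the Lyve1 value was not tested.

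Cbr2 codes for a carbonyl reductase (chr11:120729489-120732114, minus strand). It was at 1.02 and 0.751 FPKM in Sham 2 and Sham 3, at 2.32, 1.78 and 2.63 FPKM in PEL_3d, and at 1.48, 0.486 and 0.41 FPKM in PEL_10d. The day 3 libraries were all above Sham, whereas 2 of the 3 day 10 libraries were below. Cbr2 rose at day 3 by 1.32 ± 0.354 on the log2 scale (SE, adjusted p = 0.013 in edgeR), lost without Sham 2 (0.0515) or Sham 3 (0.107). It fell by 1.49 ± 0.444 from day 3 to day 10 (adjusted p = 0.0452). That call was lost without PEL_3d 1, 2 or 3 (adjusted p = 0.116, 0.0582 and 0.15) or without PEL_10d 2 or 3 (0.146 and 0.114), and without PEL_10d 1 the fall was 2.29 (0.00612).

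**Figure D1:**
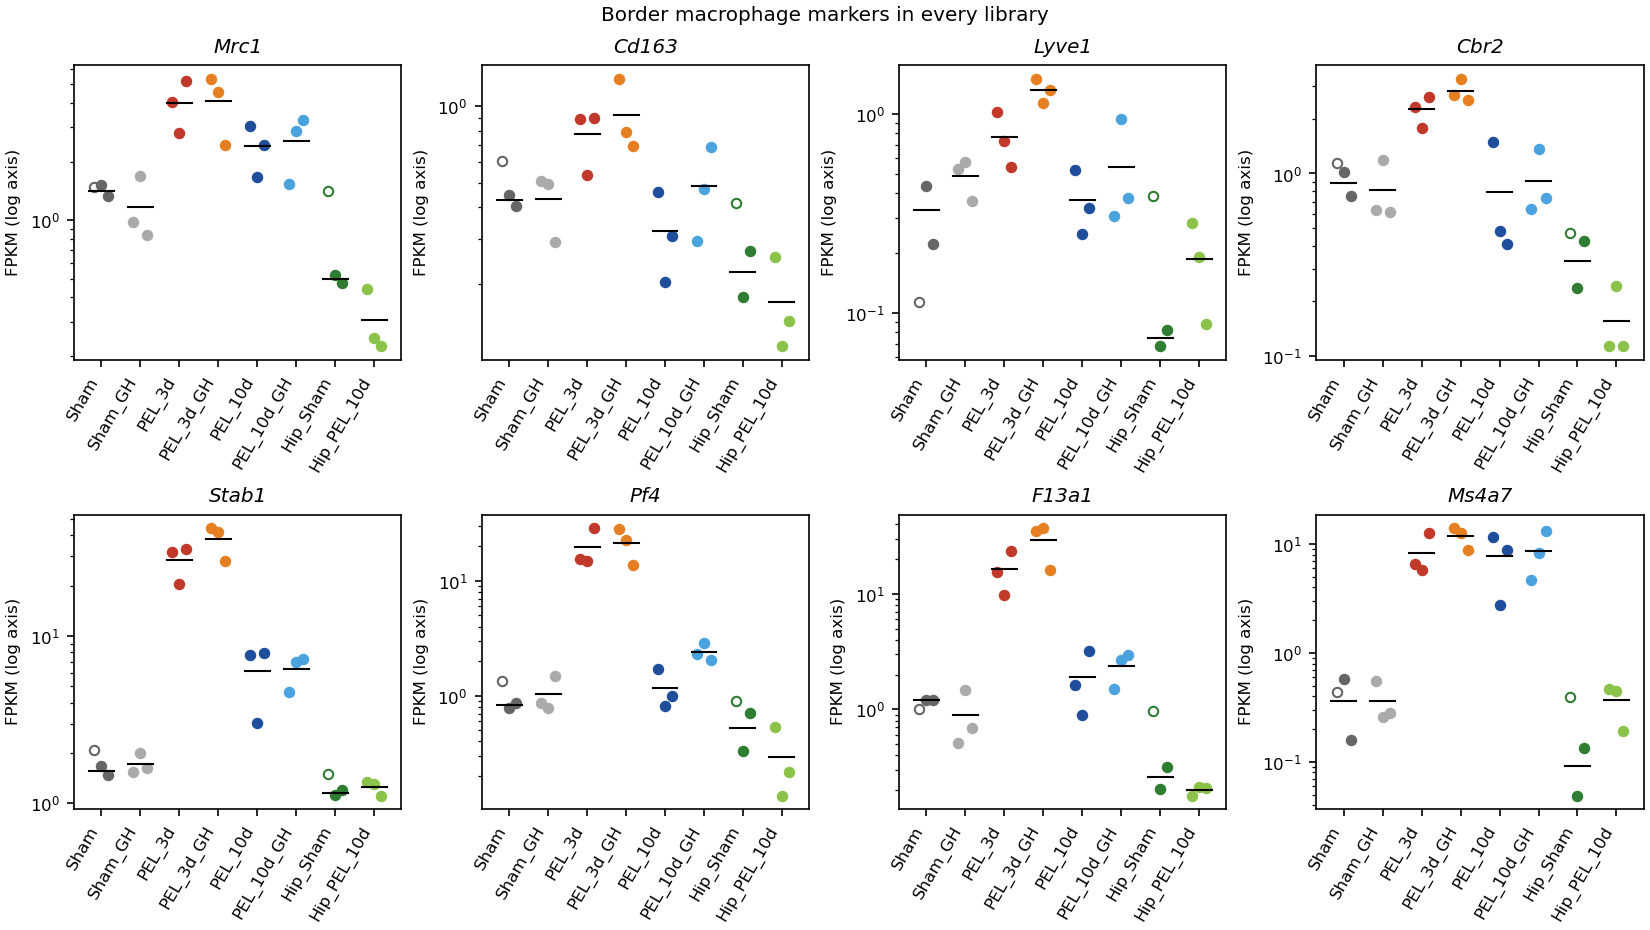
FPKM of each marker (log axis) in all 24 libraries, grouped by condition on the horizontal axis. Points are libraries, bars are group means without the open points, and open points are Sham 1 and Hip_Sham 1; Stab1, Pf4 and F13a1 peak in the day 3 groups, and Ms4a7 stays between 2.77 and 13.2 FPKM in the hypothalamic day 10 groups.

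Counted together, 7 of 8 markers rose in PEL_3d against Sham, where 22.2% of all genes tested rose. Pf4 and Ms4a7 had under 10 counts in both Sham libraries, so they passed the count filter through the lesioned libraries. In PEL_10d against Sham, 2 of 7 tested rose, with a background of 7.97%. Ms4a7 was among them and passed the filter through PEL_10d, on 59 to 238 counts, while Pf4 was under the filter. With all 3 Sham libraries, 6 of 8 and 1 of 7 rose. At day 3 the count was 5 without Sham 2 or Sham 3, where Cbr2 and Lyve1 were lost. From PEL_3d to PEL_10d, 5 of 8 fell, with 12.2% of all genes falling. Pf4 (8 to 16 counts in PEL_10d) and Cbr2 (7 to 26) passed the count filter there through PEL_3d, where they were high. Mrc1, at -0.75 on the log2 scale, missed the threshold in edgeR (adjusted p = 0.0657) and passed with DESeq2 (0.0129), where the count was 6, and with the replicate block (0.00433). The median log2 change of the markers was 2.61 at day 3, beside -0.01 over all genes, and -1.37 from day 3 to day 10, beside 0.01 over all genes. No marker fell against Sham at either time.

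The growth hormone groups gave the same questions a separate set of libraries. All 8 markers rose in PEL_3d_GH against Sham_GH, with 26.9% of all genes rising. Ms4a7, on 6 to 10 counts in Sham_GH, and Pf4, on 8 to 14, passed the count filter here and at day 10 through the lesioned libraries. The log2 changes were 5.01 ± 0.395 for F13a1, 4.98 ± 0.297 for Ms4a7, 4.33 ± 0.355 for Pf4 and 4.33 ± 0.21 for Stab1, and from 1.06 (Cd163) to 1.79 (Mrc1) for the rest. F13a1 held 35.1, 37.2 and 16.1 FPKM against 0.514, 1.46 and 0.69 FPKM in Sham_GH, and its log2 change was 5.6 without Sham_GH 2. For Cd163 the values were 1.28, 0.787 and 0.697 FPKM against 0.506, 0.494 and 0.293 FPKM. The 2 groups did not overlap for either gene, but the Cd163 call (adjusted p = 0.0143 in edgeR) was lost without PEL_3d_GH 1 (0.0765) or Sham_GH 3 (0.058).

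At day 10 with growth hormone, 5 of 8 rose against Sham_GH, with 17.7% of all genes rising. Summed red cell genes came to 45.1 to 213.8 FPKM in PEL_10d_GH and to 17.1 to 21.9 FPKM in Sham_GH. Summed anterior pituitary genes came to 8.82 to 76.1 FPKM in PEL_10d_GH and to 9.94 to 15.7 FPKM in Sham_GH. Their part in the marker values was not tested. Ms4a7 held 4.66, 8.19 and 13.2 FPKM against 0.557, 0.258 and 0.279 FPKM, a log2 change of 4.6 ± 0.458 (adjusted p = 7.71e-05 in edgeR). Stab1 held 4.66, 7.03 and 7.33 FPKM against 1.54, 2 and 1.62 FPKM, a log2 change of 1.78 ± 0.194 (adjusted p = 0.000133). These lesioned libraries all lay above the controls. Mrc1 (1.11 ± 0.304, adjusted p = 0.02), F13a1 (1.39 ± 0.362, 0.0159) and Pf4 (1.19 ± 0.368, 0.0333) also rose, while Cd163, Cbr2 and Lyve1 had log2 changes from 0.11 to 0.15 with intervals that reached at most 1.08. Without PEL_10d_GH 2 the Lyve1 change was -0.54 (adjusted p = 0.345 in edgeR), so its direction rested on that library.

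These 3 calls lay near the threshold. In the exclusions that ended a call the log2 change was 0.89 to 1.01 for Mrc1, 1.11 to 1.29 for F13a1 and 1.01 to 1.08 for Pf4. Mrc1 was lost without PEL_10d_GH 2 (0.0622) or 3 (0.0668) or Sham_GH 1 (0.0824) or 3 (0.0842). F13a1 was lost without PEL_10d_GH 2 (0.0506) or 3 (0.0502) or Sham_GH 1 (0.0609) or 3 (0.0704). Pf4 was lost without PEL_10d_GH 2 (0.119), Sham_GH 1 (0.11) or Sham_GH 2 (0.121), and with the replicate block its adjusted p was 0.0585, each from edgeR. With 1 fit over all groups F13a1 (0.0631) and Pf4 (0.0581) were lost, and DESeq2 did not call Pf4 (0.11). The count of markers called ranged from 2 to 5 over these exclusions, and was 2 without PEL_10d_GH 2 or Sham_GH 1.

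From PEL_3d_GH to PEL_10d_GH, 4 of 8 fell, with 10.8% of all genes falling. They were F13a1 (by 3.64 ± 0.348 on the log2 scale), Pf4 (by 3.15 ± 0.302), Stab1 (by 2.57 ± 0.244) and Cbr2 (by 1.65 ± 0.327), the last lost without PEL_3d_GH 1 (adjusted p = 0.0536 in edgeR) or 2 (0.0523). Lyve1 went from 1.5, 1.14 and 1.32 FPKM to 0.306, 0.939 and 0.38 FPKM with no overlap, as for 19.8% of all genes, a log2 change of -1.3 ± 0.388 that missed the threshold in edgeR (adjusted p = 0.0529). It passed with DESeq2 (0.0222), with no filter (0.0479) and with 1 fit over all groups (0.0181), so the count was then 5 of 8, and in edgeR without PEL_10d_GH 2, where the fall was 1.95 (0.0135). Ms4a7 changed by -0.39 with an interval from -1.13 to 0.36. Against 3.15 for Pf4 here, the fall without growth hormone was 4.06, and the difference between these was not tested.

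**Figure D2:**
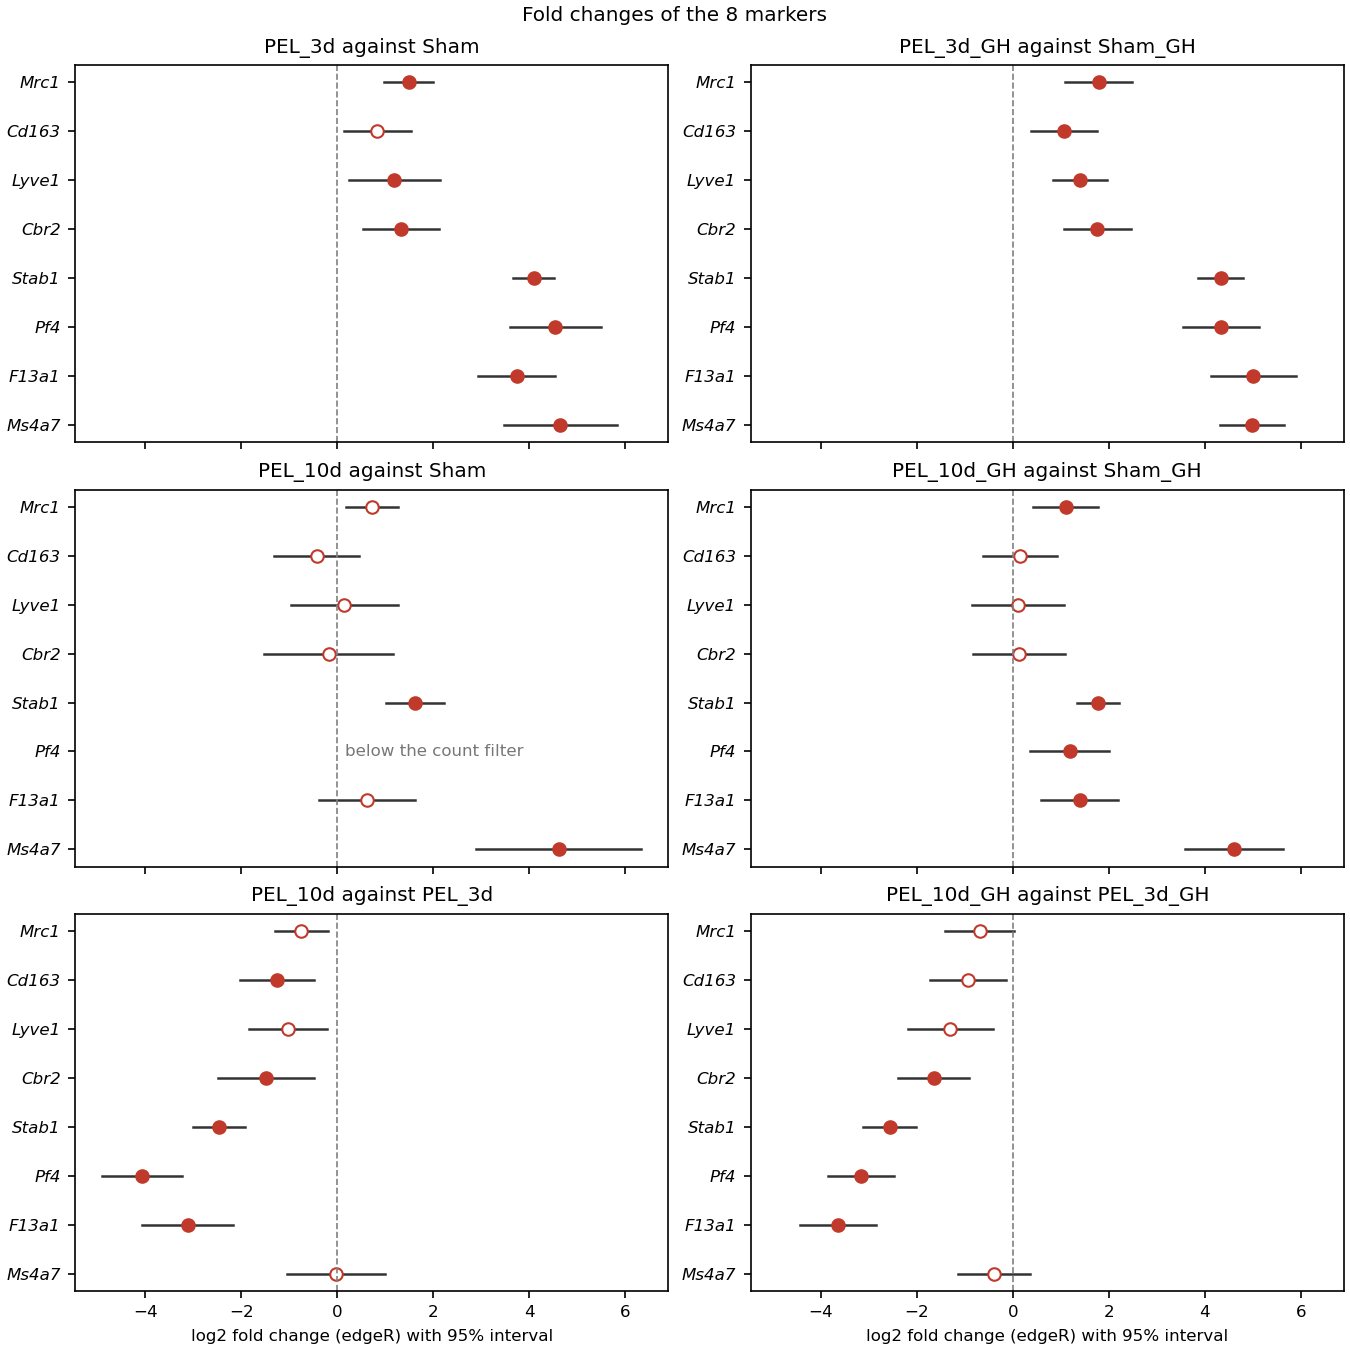
Log2 fold changes (horizontal axis) of the 8 markers in 6 comparisons, with bars for 95% intervals and filled points for an adjusted p under 0.05. Stab1, Pf4, F13a1 and Ms4a7 lie at 3.73 or above in both day 3 comparisons, and Ms4a7 is the only 1 of them that stays above 4 at day 10.

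Growth hormone itself moved no marker past the threshold. In Sham_GH against Sham, 0 of 6 tested passed, with 1.09% of all genes passing in edgeR, and 0 had an unadjusted p under 0.05, as 15% of all genes did. DESeq2 also called 0 of 8 in each of the 3 hormone comparisons. In PEL_3d_GH against PEL_3d, 0 of 8 passed, where 0.027% of all genes did, and 2 had an unadjusted p under 0.05, as 6.8% of all genes did. These were Lyve1, at 1.5, 1.14 and 1.32 FPKM with the hormone (log2 difference 0.82, 95% interval 0.22 to 1.42), and F13a1 (0.87, 0.1 to 1.64). Every PEL_3d_GH library exceeded every PEL_3d library for Lyve1, 1 of 8 markers, as for 4.51% of 14299 genes. In PEL_10d_GH against PEL_10d, 0 of 8 passed in edgeR, where 0% of all genes did (550 higher and 356 lower at an unadjusted p under 0.05, 6.14% of all, and 41 called by DESeq2). Of the markers 1 had an unadjusted p under 0.05, Pf4, at 2.31, 2.9 and 2.07 FPKM with the hormone (log2 difference 1.04, 0.2 to 1.89). Every library with the hormone exceeded every one without it for Pf4, 1 of 8 markers, as for 5.28% of all genes.

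The remaining intervals were wide. For Ms4a7 the difference with the hormone at day 10 was 0.19 with an interval from -0.91 to 1.3, and for Stab1 it was 0.3 from -0.3 to 0.9. The size of the hormone's effect in lesioned against Sham mice differed for 0 of 8 markers at day 3 (0.0462% of all genes) and for 0 of 8 at day 10 (0% of all genes), in edgeR. At either time 0 of the 8 had an unadjusted p under 0.05, beside 10.5% of all genes at day 3 and 9.04% at day 10, and DESeq2 called 0 of 8, while over all genes DESeq2 called 148 at day 3 and 97 at day 10. Absence of a call does not show that the hormone left the markers alone.

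To weigh the markers against parenchymal microglia, their summed FPKM was divided by that of the 10 homeostatic microglial genes. The sum was 5.61% and 4.81% of the microglial sum in Sham 2 and Sham 3, 8.16% to 15.1% in PEL_3d and 3.76% to 9.51% in PEL_10d. With growth hormone it was 5.53% to 7.21% in Sham_GH, 11.5% to 15.5% in PEL_3d_GH and 4.22% to 8.8% in PEL_10d_GH. Day 3 libraries were above all unlesioned ones, and day 10 libraries ranged from below to above them. With Stab1 left out of the sum, PEL_3d 2 (5.2%) lay below Sham_GH 2 (5.5%). The microglial genes themselves rose, 10 of 10 at day 3 with a median log2 change of 1.88 and 7 of 10 at day 10 with a median of 0.87, so the markers rose from a small base beside a rising reference.

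The reference mattered for day 10. Against 12 pan-macrophage genes such as Csf1r, C1qa and C1qb, which microglia, border macrophages and monocyte-derived cells share, the markers came to 4.18% to 5.31% in the 2 Sham libraries, 4.39% to 6.43% in PEL_3d and 1.85% to 3.55% in PEL_10d. On that scale day 3 overlapped Sham and day 10 lay below it, as 97% of 14299 genes did when each was divided by the same rising sum. In PEL_10d_GH the share was 1.84% to 3.06%, below the 4.52% to 5.59% of Sham_GH, as for 97.2% of all genes. A place below the controls is thus no particular of the markers.

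**Figure D3:**
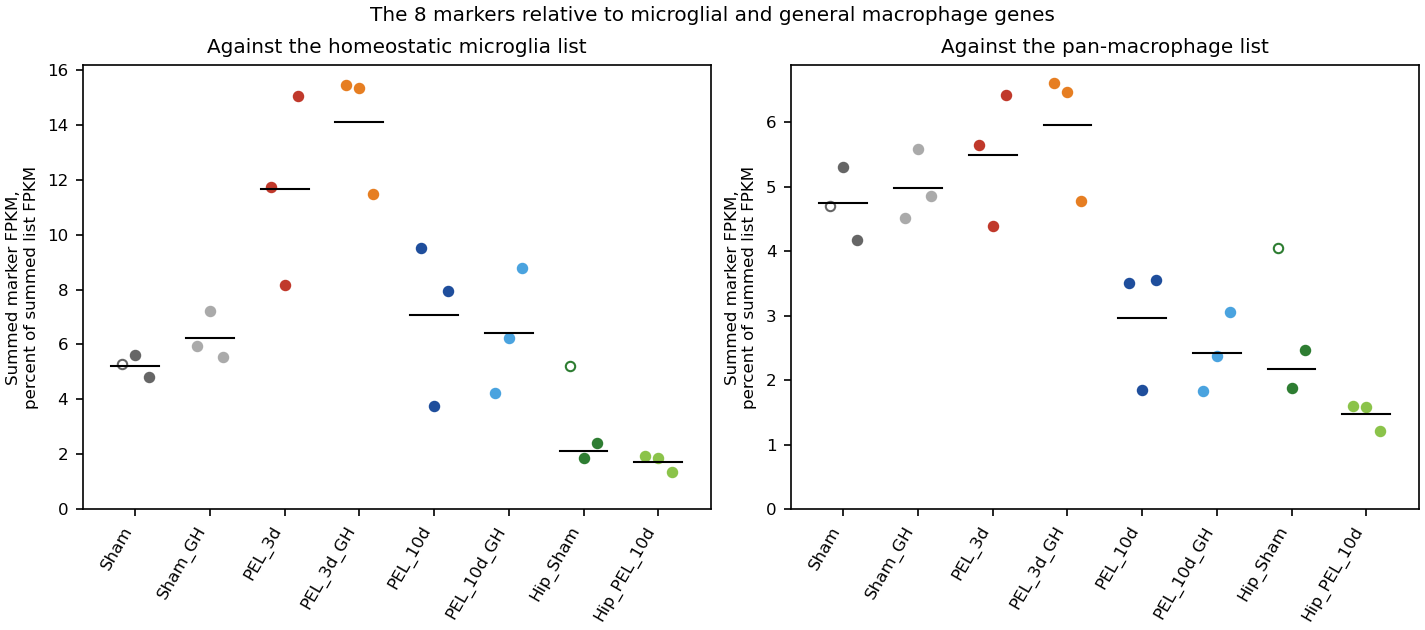
Summed FPKM of the 8 markers as a percent of the summed FPKM of 10 homeostatic microglial genes (left) and of 12 pan-macrophage genes (right), by group. Points are libraries, bars are means without the open points Sham 1 and Hip_Sham 1; the day 3 groups average 11.7% and 14.1% on the left, and the day 10 groups average 2.97% and 2.42% on the right.

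Taken gene by gene, the markers split against microglia. In the 6 day 3 libraries, hormone-treated or not, Stab1, Pf4, F13a1 and Ms4a7 were each a larger percent of the microglial sum than in any of the 5 unlesioned libraries, as was the case for 1.74% of 14299 genes. Mrc1, Cd163 and Cbr2 were each a smaller percent, as were 93.9% of all genes. Lyve1 overlapped. Cd163, for example, went from 0.262% to 0.492% of the microglial sum to 0.0766% to 0.149%, while F13a1 went from 0.499% to 1.25% up to 1.4% to 4.59%.

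In the 6 day 10 libraries only Ms4a7 of the 8 lay above the unlesioned range, at 1.03% to 3.92% against 0.12% to 0.541%, with 1.13% of all genes doing so. Cd163, at 0.0757% to 0.199%, and Cbr2, at 0.134% to 0.501%, lay below it, with 88.1% of all genes. The other 5 overlapped. Ms4a7 was thus the marker that gained most on the microglial genes at day 10, and the make-up of the marker sum shifted with it, from 4.98% Ms4a7 in the 2 Sham libraries to 10.1% in PEL_3d and 34.9% in PEL_10d.

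**Figure D4:**
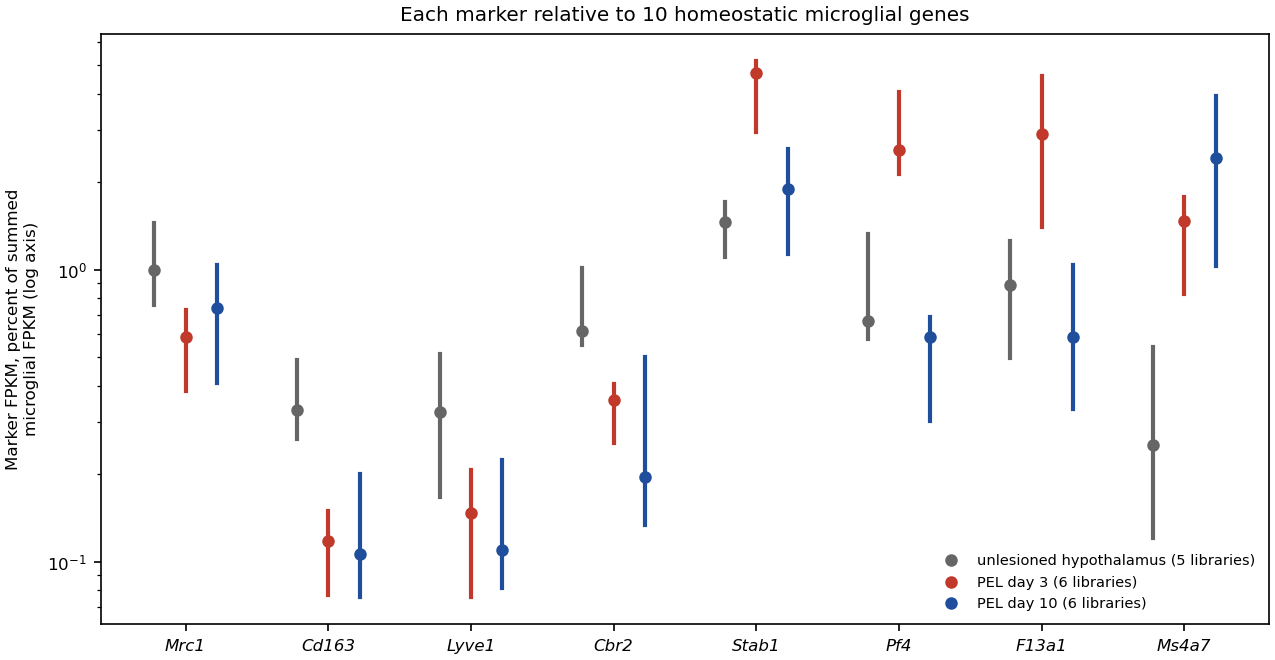
FPKM of each marker as a percent of the summed FPKM of 10 homeostatic microglial genes (log axis). Points are medians and lines run from the lowest to the highest library of 5 unlesioned, 6 day 3 and 6 day 10 hypothalamic libraries; Mrc1, Cd163 and Cbr2 drop at day 3 while Stab1, Pf4, F13a1 and Ms4a7 climb.

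**Figure D5:**
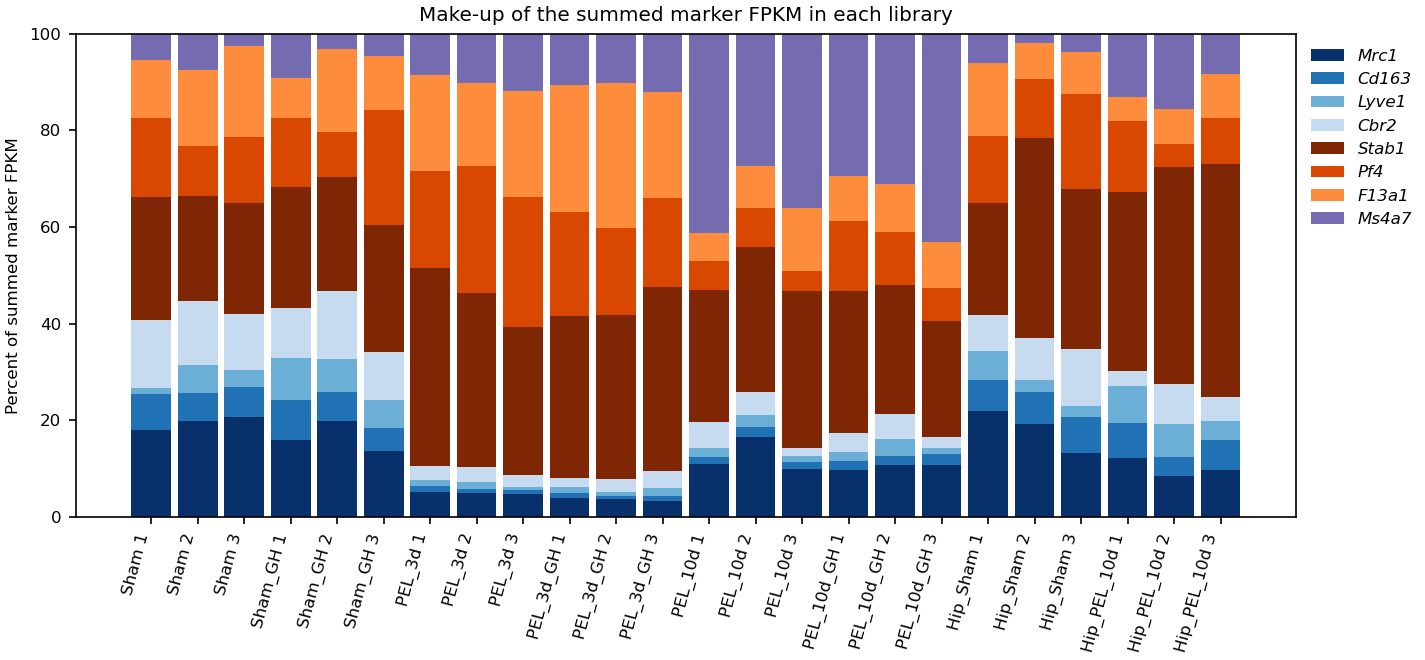
Percent of the summed FPKM of the 8 markers held by each marker, 1 bar a library, 24 libraries. Mrc1, Cd163, Lyve1 and Cbr2 shrink from a large part of the bar in Sham to a small one at day 3, where Stab1, Pf4 and F13a1 fill most of it, and Ms4a7 widens at day 10.

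In the Sham libraries Mrc1, Cbr2, Cd163 and Lyve1 held 20.2%, 12.5%, 6.08% and 4.57% of the marker sum. In PEL_3d they held 4.99%, 2.85%, 0.971% and 1.03%, and Stab1 alone held 35.9%. All of these shares are on the FPKM scale, corrected for gene length.

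Genes of other macrophage and blood cell types moved at the same time. Of 15 other border macrophage genes, 9 of 13 tested rose at day 3 and 6 of 11 at day 10. Of all genes tested, 22.2% rose at day 3 and 7.97% at day 10, shares that also apply to the list counts that follow. Clec10a, Mgl2, Cd38 and Colec12 were not called at day 3. Siglec1, a sialic acid receptor of tissue macrophages, rose by 5.24 ± 0.565 on the log2 scale at day 3 (adjusted p = 4.91e-05 in edgeR) and Tgfbi, a secreted matrix protein made by many macrophages, by 3.59 ± 0.241 (1.74e-06). Maf, a factor of tissue macrophages, rose by 1.22 ± 0.105 (9.16e-06). These values lay within the span of the 8 markers for Tgfbi and Maf and above it for Siglec1.

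All 12 pan-macrophage genes rose at day 3 and at day 10, with medians of 3.36 and 2.28 on the log2 scale. All 9 monocyte genes rose at day 3, and 5 of 7 tested at day 10. Ccr2, the monocyte chemokine receptor, rose by 3.05 ± 0.422 and Lyz2, lysozyme, by 5.46 ± 0.336 at day 3 on the log2 scale. Their summed FPKM went from 40.5 to 42.7 in Sham 2 and Sham 3 to 475 to 1050 in PEL_3d and 183 to 759 in PEL_10d. All 10 activated microglial genes rose at both times, and of 8 leptomeningeal fibroblast genes 5 rose and 1 fell at day 3 and 7 rose at day 10. Whether the markers came from resident, monocyte-derived or adherent meningeal cells was not tested, and these genes moved with them.

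The 4 markers with the largest changes exceeded every one of the 10 homeostatic microglial genes at day 3, whose log2 changes ran from 1.04 to 3.55. Mrc1, Cbr2 and Lyve1 lay inside that span and Cd163 below it. The 4 were picked by these same changes. Pan-macrophage genes ran from 2.13 to 5.06 at day 3 and activated microglial genes from 1.18 to 7.85, and the 4 lay inside both spans. At day 10 only Ms4a7 and Stab1 exceeded the microglial span of 0.13 to 1.48.

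Across 17 hypothalamic libraries F13a1 and Stab1 varied together most closely (Pearson r = 0.968 on log2 normalized CPM), followed by Pf4 and F13a1 (0.958) and Pf4 and Stab1 (0.945). Ms4a7 was least like Lyve1 (0.495), Cd163 (0.507) and Cbr2 (0.533). These correlations describe libraries that share their conditions and carry no test. Within PEL_10d, PEL_10d 2 was the lowest of 3 for 7 of the 8 markers, the exception being Cbr2. It was also lowest for the summed microglial genes (269.7 FPKM, beside 296.2 and 306.2 FPKM). The same held for the summed pan-macrophage genes (547.8 FPKM, beside 802.4 and 685.7 FPKM). The share of all genes lowest in that library was not taken.

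The genes whose profile was most like the mean of the markers over these 17 libraries, among 14299 genes, were Ehbp1l1 (r = 0.987), Cdk4 (0.983), Dusp6 (0.982), Ybx1 (0.979), Plin2 (0.979), Plp2 (0.979), Srgn (0.979), Spp1 (0.978), Arpc5 (0.978) and P4hb (0.977). Spp1 went from a mean of 28.9 FPKM in Sham to 1619 in PEL_3d and 127 in PEL_10d, and Plin2 from 7.98 to 111 and 19.4 FPKM. With all 18 libraries, Sham 1 included, 4 of the 10 were still in the top 10: Cdk4, Plin2, Plp2 and P4hb. Srgn and Spp1 then ranked 16 and 35, while Ybx1 ranked 600, Dusp6 1968, Ehbp1l1 2621 and Arpc5 3549, so the place of those 4 depended on leaving out that library.

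In hippocampus, away from the pituitary stalk, no marker passed the test. Stab1 was at 1.5, 1.12 and 1.2 FPKM in Hip_Sham and at 1.33, 1.3 and 1.11 FPKM in Hip_PEL_10d. Mrc1 was at 1.41, 0.522 and 0.476 FPKM in Hip_Sham and at 0.444, 0.248 and 0.224 FPKM in Hip_PEL_10d. Hip_Sham 1, the library with hypothalamic transcripts, was the highest Hip_Sham library for both, and for Mrc1 it lay well apart from the other two. The marker sum was 1.84% and 2.42% of the microglial sum in Hip_Sham 2 and 3, 5.23% in Hip_Sham 1 and 1.35% to 1.93% in Hip_PEL_10d.

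Of the 4 markers that passed the count filter in hippocampus, 0 passed the test in edgeR, where 0% of all genes did (510 higher and 924 lower at an unadjusted p under 0.05, 10.2% of all). Of the markers only Mrc1 had an unadjusted p under 0.05, which was 0.0624 in edgeR without Hip_Sham 1, and DESeq2 called 0 of 8 markers among 34 genes higher and 166 lower. Without Hip_Sham 1, edgeR called 296 genes higher and 577 lower, and 0 of 4 markers. Mrc1 differed by -1.3 ± 0.478 on the log2 scale (SE, adjusted p = 0.476 in edgeR), and by -0.73 without Hip_Sham 1 (0.231). Stab1 differed by 0.03, with an interval from -0.28 to 0.34, and by 0.09 from -0.22 to 0.39 without Hip_Sham 1. Pf4, Ms4a7, Lyve1 and Cbr2 had between 1 and 17 counts per hippocampal library and were under the filter in edgeR. Ms4a7 was at 0.395, 0.049 and 0.134 FPKM in Hip_Sham and at 0.193 to 0.47 FPKM in Hip_PEL_10d, which overlapped with Hip_Sham 1 and not without it, on 1 and 3 counts in the other two. Lyve1, at 0.068 and 0.082 FPKM in Hip_Sham 2 and 3, 0.387 FPKM in Hip_Sham 1 and 0.088 to 0.282 FPKM in Hip_PEL_10d, likewise overlapped only with Hip_Sham 1. Without that library 24.3% of 14299 genes also lay higher in Hip_PEL_10d with no overlap, so these 2 of 8 markers do not stand out. Pf4 and Cbr2 overlapped with and without it. Mrc1 lay lower in Hip_PEL_10d with no overlap, with or without Hip_Sham 1, and the share of all genes that did so was not taken. The summed choroid plexus genes also differed, at 4368 and 5472 FPKM in Hip_Sham 2 and 3, 20.2 FPKM in Hip_Sham 1 and 40.3 to 804.5 FPKM in Hip_PEL_10d, and their part in the marker values was not tested.

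The lesion effect at day 10 was compared between the tissues by an interaction term. In edgeR 0 of 7 markers passed, with 1.88% of all genes passing, and 3 had an unadjusted p under 0.05, as 14.9% of all genes did. DESeq2 called 3 of 8, Stab1, Ms4a7 and Mrc1, where it called 3.6% of all genes in that direction. Ms4a7 had at most 10 counts in each Sham and hippocampal library and 59 to 238 in PEL_10d, so it entered this comparison through PEL_10d, where it was high. In edgeR Stab1 came nearest, with a difference of 1.59 ± 0.34 on the log2 scale (adjusted p = 0.0512). Without Hip_Sham 1 its difference was 1.5 and passed (adjusted p = 0.0186), as it did without PEL_10d 2 (1.8, 0.0043), while with all 3 Sham libraries it was 1.4 (adjusted p = 0.101). For Ms4a7 the difference was 3.97 with an interval from 1.14 to 6.79 (adjusted p = 0.167), and for Mrc1 2.03 from 0.67 to 3.39 (0.144). Without Hip_Sham 1 the Ms4a7 difference was 3.03 with an interval from -1.02 to 7.08 (adjusted p = 0.322 in edgeR), which takes in 0. It was 4.94 without Sham 2 (0.311) and 3.32 without Sham 3 (0.468). Without Hip_Sham 1 the Mrc1 difference was 1.43 from 0.5 to 2.37 (0.0529).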

How the data were processed

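The 8 markers and all gene lists were chosen with earlier results of these data known. Per the labels and the study's methods, the authors aligned reads with Hisat2 to GRCm38 and counted them with featureCounts. They deposited estimated counts and FPKM values per gene; 8.22% of the estimated counts are not whole, and they were rounded for the tests. Genes were named by identifier (22219 of 22274 matched). Counts were compared with edgeR 4.0.16 (quasi-likelihood test, TMM, filterByExpr with a minimum count of 10, Benjamini-Hochberg adjustment over all genes, threshold 0.05) in R 4.3.3, each fit holding only the groups compared. Standard errors and 95% intervals come from that test. Levels, ratios and shares use the deposited FPKM. The fits were tested on simulated data.

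Sham 1 was left out of hypothalamic fits. Which Sham sample the study left out is not named in the sources used here, and Sham 1 was chosen for its hippocampal and choroid plexus transcripts. The named genes were all 8 markers, up to 3 genes a list with the smallest p in PEL_10d against Sham, list genes at 0, and the 10 genes whose log2(CPM + 1) correlated best with the mean of the markers. P2ry12, Tmem119, Itgb3, Clec10a, Mgl2, Cd38 and Colec12 are named as members of their lists. Alternatives were DESeq2 1.42.0, its size factors, no filter, a mean count of at least 50, 1 fit over all groups, a replicate block, all Sham libraries, and leaving out each library. The ratios to the microglial and pan-macrophage sums and the overlap of FPKM ranges over all genes (mean CPM of at least 1) were added after seeing the data. A check that rested on 1 further gene is not reported here. Gene positions are from GENCODE (GRCm38).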

Additional observations from a re-analysis of the deposited data

How the results depend on the processing

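No called marker value changed sign under any alternative run, and 11 of 31 lost the call under at least 1, 4 of them with all libraries in. Of 65 values that were not called, 28 changed sign and 9 passed under some alternative. The count of markers called in PEL_3d against Sham was 6 with DESeq2 and with 1 fit over all groups, beside 7, and ranged from 5 to 8 when 1 library was left out. The count of markers called in PEL_10d against Sham went from 2 to 1 with all 3 Sham libraries and ranged from 0 to 3 when 1 library was left out. In PEL_3d_GH against Sham_GH it went from 8 to 5 with a mean count of at least 50, where 5 were tested. In PEL_10d_GH against Sham_GH it went from 5 to 3 with 1 fit over all groups and ranged from 2 to 5 when 1 library was left out. From PEL_3d to PEL_10d it went from 5 to 3 with a mean count of at least 50, where 5 were tested, and ranged from 3 to 7 when 1 library was left out. The difference of the day 10 effect between tissues went from 0 to 3 with DESeq2, to 1 with a mean count of at least 50 and to 1 with 1 fit over all groups, and ranged from 0 to 1 when 1 library was left out. Where no reason is given, the cause was not tested.

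Correlations of same-numbered deviations ranged from -0.409 to 0.33 over the comparisons. In PEL_10d against PEL_3d they were 0.0865, 0.33 and 0.0487, and whether replicate numbers paired those samples was not tested. With the replicate block the markers called numbered 6 in PEL_3d against Sham, 4 in PEL_10d_GH against Sham_GH and 7 from PEL_3d to PEL_10d, and no other comparison changed its count. Without Stab1 in it, the marker sum was 4.05% of the microglial sum in Sham, 7.53% in PEL_3d and 4.97% in PEL_10d. Low counts limit the markers in the unlesioned and hippocampal libraries tested, where Pf4, Ms4a7, Cbr2 and Lyve1 had between 1 and 29 counts each. In PEL_10d, Pf4 had 8 to 16 counts, Cbr2 7 to 26 and Lyve1 12 to 24.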

Other observations

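Genes of cells that share the vessel wall and the brain surface with border macrophages were read beside the markers. Of all 14905 genes tested at day 3, 3316 (22.2%) rose and 2719 fell, and 7.97% of all genes rose at day 10. Of 8 endothelial genes 7 rose at day 3, with a median log2 change of 0.81, and 3 at day 10, with a median of 0.26, in edgeR's quasi-likelihood test, while the 8 markers had a median of 2.61 at day 3. Of 6 neutrophil genes tested 5 rose at day 3 and 1 at day 10. Of 9 choroid plexus epithelial genes 1 rose and 2 fell at day 3. The part of these cells in the marker values was not tested.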
